A study of Mus musculus with 36 samples.

Results

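Cholesterol synthesis and its sterol-sensing control were followed here through 30 genes, 30 of 25760 to 26863 genes listed in each of 3 separately normalised tables, in cultured mouse nephron progenitor cells (NPCs) given different doses of a Wnt pathway agonist. The members were taken by name from known pathway roles. They comprise 18 enzymes that build cholesterol from acetyl-CoA, 6 genes that sense sterols and regulate synthesis, and Ch25h. The other 5 are genes of sterol-activated nuclear receptors, of sterol export and of degradation of the uptake machinery. All 30 were present in every table, and all 30 passed the filter on low values (a mean of at least 10 normalised counts) in each. The main pattern was in 1 gene. Ch25h fell to between 0.122% and 1.78% of its low-dose level when CHIR was raised in unmodified or control NPCs, but stood at 238% and 103% of the low-dose control in high CHIR after β-catenin removal by Cre and by Cas9. The sterol exporter Abcg1 was higher in high CHIR after each of the 3 knockouts. No synthesis enzyme was called between knockout and control cells in the limma fits over all libraries of a table without a replicate block. In high CHIR these fits called 8.65% of all genes with Cre, 5.09% with Cas9 and 2.54% in the QKO, so that no call among 18 enzymes says little.

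The cells were NPCs of E16.5 mouse kidneys, isolated by depleting other cell types with magnetic beads and grown in NPC expansion medium, and RNA was sequenced after a day at the stated dose of CHIR99021 (CHIR), an inhibitor of the kinase GSK3β that stabilises β-catenin. Wild-type cells were given no (0 µM), low (1.25 µM) or high (5 µM) CHIR, with 3 libraries each. Cells homozygous for a conditional β-catenin allele (B-catenin_c_c) received Cre mRNA or no Cre, and Cas9-eGFP cells received sgRNAs against Ctnnb1, the gene of β-catenin, or a GFP sgRNA as control, each in low and high CHIR with 2 libraries. The Tcf/Lef quadruple knockout (QKO) used Cas9-eGFP cells given sgRNAs against Tcf7, Tcf7l1, Tcf7l2 and Lef1, with 2 libraries in low and 3 in high CHIR, and control cells given GFP sgRNA with 3 in each. Before the dose was set, QKO cells and their controls were kept in low CHIR a day longer than cells of the β-catenin experiments. Nucleic acids were lipofected with mCherry mRNA and mCherry-positive cells were sorted, so that the knockout need not be complete in each cell. The mice were Swiss Webster or C57Bl/6, and the sex of the embryos was not distinguished. Nothing in the labels says whether replicates were separate cultures or animals, so p-values measure the spread between these libraries, which may be technical.

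Between 13089780 and 76071568 reads fell on genes per library. The 7 nephron progenitor markers summed to 27684 to 32972 normalised counts in wild-type cells without CHIR and to 306 to 405 in high CHIR, whereas the 5 markers of the induced nephron summed to 652 to 1563 without CHIR and to 22676 to 26200 in high CHIR. Ctnnb1 transcripts were lower with Ctnnb1 sgRNA in high CHIR (log2 difference -0.89, limma adjusted p = 0.0429), but not with Cre (0.06, adjusted p = 0.917), where reads from exons outside the deleted part are counted and the transcript level checks little. Of the 4 QKO targets, Tcf7 passed the test in high CHIR (-1.64), and Lef1 (-2.12), Tcf7l2 (-0.35) and Tcf7l1 (0.15) did not. In 1 control library of the Tcf/Lef table (high CHIR, replicate 1), 7 macrophage and blood markers summed to 3270 normalised counts, against at most 79.9 in any other library of that table, and results that rest on it are also given without it.

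As background, cells make cholesterol from acetyl-CoA through mevalonate, the isoprenoid farnesyl diphosphate, squalene and lanosterol. When membrane sterol is low, the escort protein Scap carries the SREBP transcription factors to the Golgi for cleavage, and the cleaved factor turns on the synthesis enzymes. The Insig proteins hold Scap in the endoplasmic reticulum when sterol is plentiful. Ch25h encodes cholesterol 25-hydroxylase, whose product 25-hydroxycholesterol binds Insig and also activates the liver X receptors (LXRs), nuclear receptors that turn on the exporters Abca1 and Abcg1 and the ubiquitin ligase gene Mylip. Ch25h is known best from macrophages, where it is an interferon-induced gene.

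The sequences upstream of 3 members are shown because they are the gene with the strongest response to CHIR (Ch25h), an early step of sterol synthesis (Hmgcs1) and the enzyme that rose in both dose comparisons (Sc5d). They were taken from RefSeq on GRCm38.p6, which matched 25 of the 30 members, and cover the 250 bases before the annotated start, written 5′ to 3′ on the strand of the gene. They lie at chr19:34475149-34475398 on the minus strand for Ch25h, chr13:119690101-119690350 on the plus strand for Hmgcs1, and chr9:42264301-42264550 on the minus strand for Sc5d. Capitals mark matches to the 4 motifs searched on both strands.
Ch25h: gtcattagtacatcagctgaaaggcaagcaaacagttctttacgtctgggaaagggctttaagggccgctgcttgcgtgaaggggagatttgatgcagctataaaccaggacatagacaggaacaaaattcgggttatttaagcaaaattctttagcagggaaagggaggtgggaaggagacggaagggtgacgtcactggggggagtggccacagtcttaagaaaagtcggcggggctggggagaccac
Hmgcs1: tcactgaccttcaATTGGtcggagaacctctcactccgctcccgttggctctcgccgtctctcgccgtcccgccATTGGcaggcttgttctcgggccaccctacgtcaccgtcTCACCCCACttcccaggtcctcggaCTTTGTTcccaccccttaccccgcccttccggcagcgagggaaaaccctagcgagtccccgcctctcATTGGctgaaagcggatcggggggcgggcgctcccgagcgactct
Sc5d: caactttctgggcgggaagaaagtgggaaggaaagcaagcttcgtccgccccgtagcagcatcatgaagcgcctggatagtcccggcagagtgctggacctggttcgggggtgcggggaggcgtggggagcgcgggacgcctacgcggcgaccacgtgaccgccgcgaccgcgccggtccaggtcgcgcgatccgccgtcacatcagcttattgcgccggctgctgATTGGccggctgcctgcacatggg

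The motifs were the sterol response element type TCACNCCAC, the NF-Y box CCAAT, the Tcf/Lef type CTTTGNT, and the LXR direct repeat DR4, in which AGGTCA stands on either side of 4 free bases. In the Hmgcs1 window, TCACCCCAC starts 137 bases before the start, CTTTGTT 112 bases before it, and CCAAT is found on the other strand (read as ATTGG) at 237, 176 and 45 bases. The Sc5d window holds CCAAT on the other strand 24 bases before the start, and the Ch25h window holds none of the 4. Among all 27025 genes with promoters of this length, 37.5% hold CCAAT and 1.22% the sterol response type, and among the members these were in 19 and 1 of 25. CTTTGNT was in 5 of 25 members (Acat2, Dhcr7, Hmgcs1, Hsd17b7 and Nr1h3) and in 18.1% of all genes. The LXR repeat was in 0 of 25 members. Per promoter, of which there are 32851, the shares are 33.8%, 1.05%, 16% and 0.0152% for CCAAT, the sterol response type, CTTTGNT and the LXR repeat. These are matches of letters in a short window and say nothing of binding, here or elsewhere in the genes.

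Ch25h fell with each step of the CHIR dose in wild-type NPCs. The gene (ENSMUSG00000050370) is a single exon on chromosome 19, at 34473778 to 34475164 of GRCm38 on the minus strand. Its normalised read counts were 2798, 2569 and 3352 without CHIR, 833, 836 and 1208 in low CHIR, and 20.2, 11.2 and 15.0 in high CHIR. The 3 groups did not overlap. On the log2(normalised count + 1) scale, the difference was -5.88 between high and low CHIR (SE 0.24, n = 3 against 3, limma adjusted p = 5.52e-07) and 1.61 between no and low CHIR (SE 0.24, adjusted p = 0.00774), and the call of the latter was lost without no-CHIR replicate 3 (1.50, adjusted p = 0.0557). Of 17411 genes tested, 13 had a more negative difference between high and low CHIR. Since the high-CHIR values rest on 42 reads in all, the fold was also taken from summed reads, and low CHIR stood 60.8-fold above high CHIR (95% counting interval 44.8 to 84.5, which covers counting error only).

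The same fall was present in the 3 control arms of the knockout experiments. In cells with the conditional allele and no Cre, Ch25h was at 2793 and 2429 normalised counts in low CHIR and at 4.60 and 21.8 in high CHIR (log2 difference -7.85, SE 0.47, limma adjusted p = 6.10e-07). With GFP sgRNA in the β-catenin table it was at 1671 and 2549 in low and at 46.5 and 28.7 in high CHIR (-5.78, SE 0.47, adjusted p = 7.13e-06). In the controls of the QKO it was at 971, 1148 and 930 in low and at 1.65, 1.01 and 1.06 in high CHIR (-8.83, SE 0.44, adjusted p = 4.97e-07), the most negative difference of the 15878 genes of that table. In each arm every high-CHIR library lay under every low-CHIR library. The QKO controls had only 4 reads in high CHIR against 3033 in low CHIR, a ratio of 797.6 with a counting interval of 311 to 2929, so its size is known only roughly. The libraries differ between tables and were normalised separately, and the sizes of the fall were not tested against each other.

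**Figure D1:**
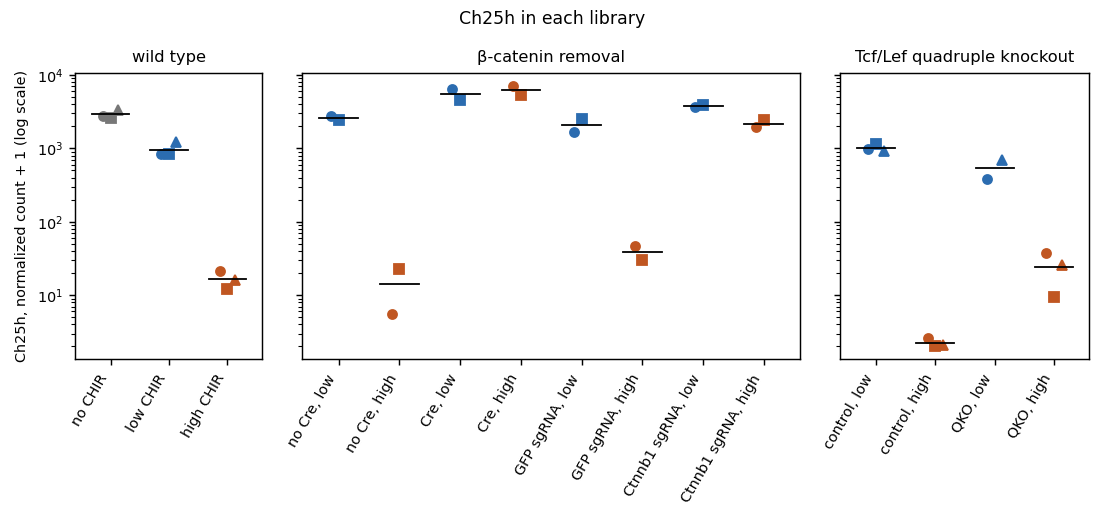
Ch25h in the 36 libraries as normalised count + 1 on a log10 axis (y axis), by group (x axis), with 1 panel for each separately normalised table. Circles, squares and triangles are replicates 1, 2 and 3, black bars are group means, and gray, blue and orange mark no, low and high CHIR. The high-CHIR libraries of wild-type and control groups have normalised counts between 1.01 and 46.5, whereas those with Cre or Ctnnb1 sgRNA lie between 1953 and 7029.

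Removal of β-catenin kept Ch25h high at the high dose. With Cre it was at 7029 and 5379 normalised counts in high CHIR and at 6529 and 4628 in low CHIR. The Cre libraries at both doses lay above the no Cre libraries at either dose. The difference from no Cre in high CHIR was 9.09 (log2, SE 0.47, limma adjusted p = 1.30e-07), the largest positive difference among 16780 genes, and within Cre cells the doses differed by 0.16 (adjusted p = 1). With Ctnnb1 sgRNA it was at 1953 and 2409 in high CHIR and at 3616 and 3877 in low CHIR, against the GFP sgRNA values above. The difference in high CHIR was 5.85 (SE 0.47, adjusted p = 1.01e-05), and within the Ctnnb1 sgRNA cells the doses differed by -0.79 (adjusted p = 0.646). The change of the CHIR response itself, an interaction term, was 8.01 (SE 0.67, adjusted p = 0.000128) for Cre and 4.99 (SE 0.67, adjusted p = 0.00358) for Cas9. Within each removal, the comparison in high CHIR, the fall in its control cells and the interaction share the high-CHIR control libraries. Cre and Cas9 had separate controls and were not tested against each other.

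In low CHIR, Ch25h stood at 214% of its control with Cre and at 178% with Ctnnb1 sgRNA, as shares of the mean of the control libraries, and neither difference passed the test (log2 1.08, adjusted p = 0.431, and 0.86, adjusted p = 1, limma). DESeq2 on the recovered reads called the first (1.11, adjusted p = 0.0273). No member passed in low CHIR for either removal, where 0.328% and 0.0536% of all genes tested were called. At an unadjusted p under 0.05, 1 member passed with Cre and 0 with Cas9. The shares of all genes at that threshold are not given here, so these counts are no result about the members in particular.

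After loss of the 4 Tcf/Lef factors the fall of Ch25h with CHIR was smaller but remained. In the QKO it was at 387 and 702 normalised counts in low CHIR and at 36.5, 8.31 and 25.1 in high CHIR, and the doses differed by -4.64 (log2, SE 0.49, limma adjusted p = 0.000454). It was the 1 member called between the doses in QKO cells, where 2.54% of all genes were. With the replicate block 3 members were called, where 6% of all genes were, and the added members were 2 enzymes that rose, Ebp, a sterol isomerase (0.56, adjusted p = 0.0497), and Sc5d (0.71, adjusted p = 0.0433). Against control cells in high CHIR it was higher by 3.23 (SE 0.44, n = 3 against 3, adjusted p = 0.00261), from 76 reads against 4, a ratio of 19.0 with a counting interval of 7.11 to 71.3. In high CHIR all QKO libraries lay above all control libraries, and in low CHIR both lay below them (-0.96, adjusted p = 0.904, so that this difference did not pass). The interaction was 4.19 (SE 0.66, adjusted p = 0.0424, and 0.0105 with the replicate number as a block). That call was fragile in the fit without the block. It was lost with a pseudocount of 5 (2.98, adjusted p = 0.0941) and on leaving out any of 8 of the 11 libraries, with differences of 3.76 to 4.62 and adjusted p from 0.0664 to 0.277. These 8 were both QKO low-CHIR libraries, replicates 1 and 3 of QKO high CHIR, and replicates 1 and 2 of the controls at each dose.

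As a share of the mean of its own low-CHIR control, Ch25h in high CHIR was thus 238% (206 to 269%) with Cre, 103% (92.6 to 114%) with Ctnnb1 sgRNA and 2.29% (0.818 to 3.59%) in the QKO, while the controls of these arms stood at 0.505%, 1.78% and 0.122%. The ranges are those of the libraries. No test was run between tables, and the QKO arm also had a day more in low CHIR before the dose was set.

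Markers of other cell types and cell states also differed between the groups, some with Ch25h and some against it. In wild-type cells, 7 of 8 macrophage and blood markers were measured and summed to 1005 to 1394 normalised counts without CHIR, 786 to 947 in low and 261 to 420 in high CHIR. In the β-catenin table the 4 markers of that list that were measured summed to at most 94.0 in any library, while Ch25h reached 7029. In the Tcf/Lef table the library with a macrophage sum of 3270 had 1.65 normalised counts of Ch25h. In the QKO controls the endothelial markers summed to 926 to 1375 in low and to 161 to 329 in high CHIR. The stroma markers there summed to 2514 to 4333 and to 976 to 2718, ranges that overlap. In wild-type cells the 5 ureteric epithelium markers measured summed to 174 to 446, 201 to 441 and 712 to 5427, opposite to Ch25h. The 6 stroma markers summed to 2857 to 10029 without CHIR, 4092 to 6471 in low and 1075 to 3332 in high CHIR. The 6 endothelial markers summed to 408 to 539 without CHIR and to 197 to 408 in low CHIR. In high CHIR they summed to 812, 652 and 82.3. The endothelial sums rest largely on single genes. The highest of these wild-type sums, 812, was mostly Tek, which reached 769 with a median of 2.29 over the libraries. In the β-catenin table Plvap reached 1379, and no other endothelial marker exceeded 21.9 in any library. In the β-catenin table the endothelial markers summed to 496 to 1093 without Cre in low CHIR, to 66.4 to 87.4 in high CHIR, and to 265 to 448 with Cre in high CHIR. The nephron progenitor sum moved the same way, from 2679 to 4300 without Cre to 14466 to 16761 with Cre in high CHIR. With Ctnnb1 sgRNA in high CHIR the endothelial sum was 506 to 523, against 81.4 to 159 with GFP sgRNA. The progenitor sums there were 12356 to 13583 and 3325 to 4010. The stroma sum in high CHIR was 3375 to 3406 without Cre and 3884 to 5417 with Cre. With GFP and Ctnnb1 sgRNA it overlapped (2880 to 8322 and 6085 to 10932). The part of these markers in the result was not tested. In bulk samples fewer cells of a type and less RNA per cell cannot be told apart.

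The interferon response list of 8 genes stood apart with Cre. It summed to 1533 to 2872 normalised counts in the 4 Cre libraries and to 213 to 355 in the 4 no Cre libraries. With GFP sgRNA it was at 410 to 1090 and with Ctnnb1 sgRNA at 430 to 1256, so these groups overlapped, and in the Tcf/Lef table it was at 125 to 496. Its part in the Ch25h level with Cre was not tested. The exon of Gm26902, an RNA gene on the opposite strand, overlaps the Ch25h exon. The library kit does not mark the strand, so reads in the overlap cannot be assigned to one of them.

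Abcg1 was, with Ch25h, the member called after all 3 knockouts in high CHIR. Abcg1, which moves cholesterol to lipoprotein particles, was at 162, 243 and 326 normalised counts without CHIR, 14.5, 105 and 150 in low CHIR and 7.84, 36.3 and 72.0 in high CHIR of the wild-type series. Low and high CHIR overlapped, and the difference of high from no CHIR was -3.03 (log2, limma). In high CHIR it was at 40.5 and 61.2 without Cre and at 200 and 219 with Cre (2.05, SE 0.40, adjusted p = 0.00503). With GFP sgRNA it was at 21.7 and 41.2, and with Ctnnb1 sgRNA at 157 and 231 (2.63, SE 0.40, adjusted p = 0.00162). In the Tcf/Lef table the controls in high CHIR were at 137, 57.6 and 34.0 and the QKO at 439, 417 and 208 (2.36, SE 0.55, adjusted p = 0.0459). In each of the 3 comparisons every knockout library lay above every control library.

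The Abcg1 calls were not equally firm. With Cre the call was lost without no Cre high-CHIR replicate 1 (1.76, adjusted p = 0.0563). In the QKO it was lost on leaving out either of control replicates 2 and 3 or any QKO replicate in high CHIR, with differences of 1.91 to 2.71 and adjusted p from 0.0547 to 0.182, and under edgeR (2.20, adjusted p = 0.0694). Abcg1 fell with CHIR in no Cre cells, from 111 and 173 to the values above (-1.46, adjusted p = 0.0376), a call lost on leaving out any of these 4 libraries (-1.14 to -1.78, adjusted p from 0.0553 to 0.22), and in GFP sgRNA cells, from 156 and 275 (-2.75, adjusted p = 0.000672). For Abcg1 the change of the CHIR response did not pass in the QKO (1.80, adjusted p = 0.987), but passed with the replicate block (1.76, adjusted p = 0.0371), which made 2 members called, where 0.126% of all genes were called without the block and 0.857% with it.

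Abca1, which loads cholesterol onto apolipoproteins, was a low-count gene with wide spread. It was at 25.7, 82.0 and 67.0 normalised counts in wild-type cells without CHIR, at 13.1, 13.3 and 14.4 in low and at 17.9, 22.3 and 14.0 in high CHIR. It was higher without CHIR than in low CHIR (1.87, SE 0.46, limma adjusted p = 0.0482). In high CHIR it was at 4.60 and 14.5 without Cre and 22.2 and 55.9 with Cre (1.96, adjusted p = 0.101), and at 8.99 and 4.79 with GFP sgRNA and 28.5 and 17.6 with Ctnnb1 sgRNA (1.62, adjusted p = 0.201). The groups did not overlap in either pair, but neither difference passed. The replicate block called the difference with Cre (adjusted p = 0.0171), where 15.7% of all genes were called with the block. In the Tcf/Lef table the controls were at 383, 229 and 29.4 in low and 88.2, 21.2 and 2.13 in high CHIR, and the QKO at 337 and 65.5 and at 116, 49.9 and 20.2. Here each control pair fell, and the difference of -2.92 passed with the replicate block (adjusted p = 0.00058) and not without it (0.133). The highest of the high-CHIR control values, 88.2, was in the library with the macrophage transcripts.

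**Figure D2:**
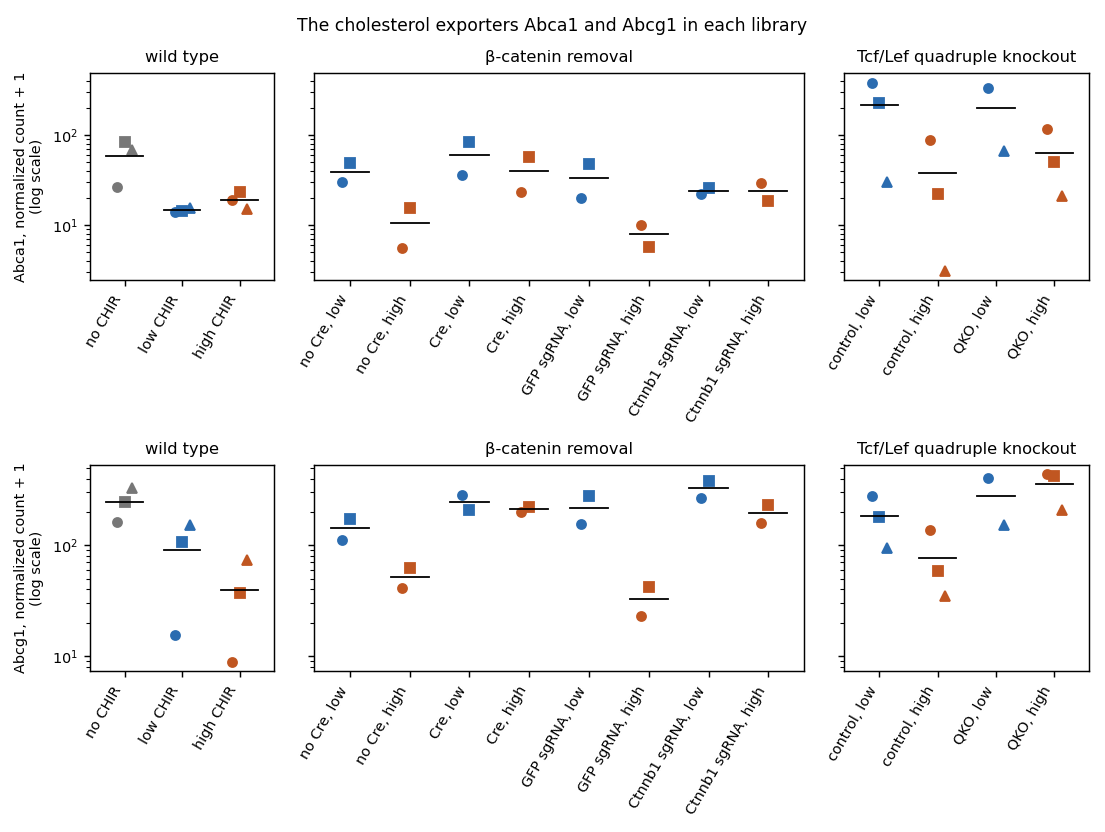
Abca1 and Abcg1 in the 36 libraries as normalised count + 1 on a log10 axis (y axis), by group (x axis), in panels by gene and table. Circles, squares and triangles are replicates 1, 2 and 3, black bars are group means, and gray, blue and orange mark no, low and high CHIR. The normalised counts of Abcg1 in high CHIR lie at 21.7 to 61.2 in the β-catenin controls and at 157 to 231 after removal of β-catenin.

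Mylip, whose product marks lipoprotein receptors for degradation, fell between low and high CHIR in wild-type cells, from 802, 823 and 764 to 398, 493 and 436 normalised counts (log2 difference -0.85, SE 0.14, limma adjusted p = 0.00369). It did not pass in the QKO controls (-0.48, adjusted p = 0.463) or, without a block, between knockout and control cells. With Cre in high CHIR the block called it lower (-0.83, adjusted p = 0.00749, and 0.197 without the block). In that fit 15.7% of all genes were called. Of the genes of the LXRs themselves, Nr1h3 was at 6.98 to 115 normalised counts over the 36 libraries. Neither it nor Nr1h2, the other LXR gene, was called in any comparison.

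Among the genes that regulate SREBP, few differences passed and these were moderate. Insig2, the sterol-dependent anchor of Scap, was at 1040, 1067 and 1095 normalised counts without CHIR and 585, 742 and 792 in low CHIR of the wild-type series (log2 difference 0.61, SE 0.14, limma adjusted p = 0.0414). In high CHIR it was at 915 and 747 without Cre and 1704 and 1302 with Cre (0.85, SE 0.18, adjusted p = 0.00786). This call was lost without Cre replicate 1 (0.65, adjusted p = 0.0812) and without no Cre replicate 2 (0.70, adjusted p = 0.0819). It also fell with CHIR in the no Cre cells, whose low-CHIR libraries were at 1453 and 1400 (-0.79, adjusted p = 0.0133). That call went on leaving out no Cre high-CHIR replicate 2 (-0.64, adjusted p = 0.118) or low-CHIR replicate 1 (-0.76, adjusted p = 0.0754). With Ctnnb1 sgRNA in high CHIR it was at 1079 and 1130 against 913 and 769 with GFP sgRNA, and it was not called there.

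Srebf1, which encodes the SREBP that mainly drives fatty acid synthesis, was higher with Ctnnb1 sgRNA in high CHIR, at 1571 and 1876 normalised counts against 831 and 928 (log2 difference 0.97, SE 0.21, limma adjusted p = 0.0181). Leaving out any of these 4 libraries ended the call (0.84 to 1.09, adjusted p from 0.0519 to 0.196). With Cre it was at 1288 and 1354 against 1010 and 838 and was not called. Srebf2, which encodes the SREBP of cholesterol synthesis, was at 3133, 2500 and 3077 in high CHIR and 2085, 1880 and 1935 in low CHIR of the wild-type series, groups that did not overlap but did not pass (0.56, SE 0.17, adjusted p = 0.0606). Insig1, itself an SREBP target, and Srebf2 were higher in high than in no CHIR (0.91 and 0.55). Scap and Stard4, the latter a carrier of cholesterol between membranes, were not called in any comparison.

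The 18 synthesis enzymes as a group gave little response to CHIR in wild-type cells. Between high and low CHIR, 3 of the 30 members passed (Sc5d higher, Mylip and Ch25h lower), where 10.4% of the 17411 genes tested were called, close to the members' share. Of the enzymes 14 had a positive and 4 a negative difference, with a median of 0.21 on the log2 scale against 0.01 over all genes. Sc5d, which inserts a double bond late in the pathway, was at 4976, 4700 and 5281 normalised counts in high and 3666, 3276 and 3014 in low CHIR (0.59, SE 0.14, limma adjusted p = 0.0239). The groups were apart, but the call was lost without high-CHIR replicate 1 (0.59, adjusted p = 0.0629) and without low-CHIR replicate 2 (0.58, adjusted p = 0.0717) or 3 (0.52, adjusted p = 0.114). Hmgcs1, which makes the precursor of mevalonate, was at 12777, 10968 and 29990 in high CHIR, and its highest value was that of replicate 3, the library with the highest value of the group for 14 of the 18 enzymes.

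Between no and low CHIR, 4 members passed and all were higher without CHIR (Fdps, Insig2, Abca1 and Ch25h), where 4.97% of all genes were called. Fdps, which makes farnesyl diphosphate, was at 592, 840 and 760 normalised counts without CHIR and 455, 397 and 345 in low CHIR (log2 difference 0.87, SE 0.17, limma adjusted p = 0.0241). The enzymes were divided, with 9 positive and 9 negative differences and a median of 0.02. The calls of Fdps, Insig2 and Abca1 were lost without any 1 of the 3 low-CHIR libraries or without no-CHIR replicate 2 or 3, and that of Insig2 also without no-CHIR replicate 1 (0.63, adjusted p = 0.0563). Over these removals the differences were 0.76 to 0.96 for Fdps, 0.48 to 0.70 for Insig2 and 1.55 to 1.91 for Abca1, with adjusted p from 0.0529 to 0.198. 

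Between high and no CHIR of the wild-type series 8 members passed, where 23.4% of all genes were called. Higher in high CHIR were Insig1, Srebf2 and Sc5d (0.64), and lower were Ch25h (-7.49), Abcg1, Abca1, Mylip (-0.53) and Mvk, the kinase of mevalonate (-0.79). The calls of Ch25h, Sc5d and Mvk were kept on leaving out any 1 of the 6 libraries. Abcg1 lost its call without high-CHIR replicate 1 or 2 or any no-CHIR library (-2.17 to -3.29, limma adjusted p from 0.0535 to 0.111), and Abca1 without any high-CHIR library or no-CHIR replicate 2 or 3 (-1.18 to -1.66, adjusted p from 0.0543 to 0.144). Srebf2 lost it without high-CHIR replicate 1 or 3 or no-CHIR replicate 2 or 3 (0.38 to 0.57, adjusted p from 0.0609 to 0.108), Insig1 without no-CHIR replicate 2 or 3 (0.72 and 0.92, adjusted p = 0.079 and 0.0659), and Mylip without high-CHIR replicate 1 or no-CHIR replicate 3 (-0.46 and -0.47, adjusted p = 0.0734 and 0.0906).

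The largest response of the enzymes was in the controls of the QKO. Sc5d was at 2745, 3008 and 3511 normalised counts in high and 1046, 1224 and 1834 in low CHIR (log2 difference 1.21, SE 0.18, limma adjusted p = 0.000843). Fdps was at 274, 341 and 418 in high and 96.6, 130 and 223 in low CHIR (1.26, SE 0.27, adjusted p = 0.00808). For both genes the groups did not overlap. With Ch25h these were the 3 members called, where 14.9% of all genes were. The enzymes had 17 positive differences and 1 negative, and a median of 0.49 against 0.00 over all genes.

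Same-numbered libraries of the Tcf/Lef table deviated together, and with the replicate number as a block 13 members were called in these controls, 9 higher and 4 lower, where 20.9% of all genes were called with the block. The enzymes then called, all higher, were Acat2 (0.51), Mvd (0.74), Idi1 (0.76), Fdps, Fdft1 (0.59), Cyp51 (0.63), Msmo1 (0.64), Nsdhl (0.52) and Sc5d. They span the pathway from the joining of acetyl-CoA units (Acat2) through the isoprenoid units made by Mvd and Idi1 and the making of squalene (Fdft1) to the removal of methyl groups from lanosterol (Cyp51, Msmo1 and Nsdhl). The 4 called lower were Ch25h, Abca1 (-2.92), Abcg1 (-1.35) and Srebf1 (-0.62, limma adjusted p = 0.0453). Pair by pair, 15 of the 18 enzymes were higher in high CHIR in every one of the 3 pairs and 1, Mvk, was lower in each. The share of all genes with the same sign in the 3 pairs was not counted.

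Single libraries moved this count. Without the block 7 members were called on leaving out high-CHIR control replicate 1, the library with macrophage transcripts, and 16 on leaving out low-CHIR control replicate 3. With the block and without the macrophage library 12 were called, 8 higher and 4 lower. The shares of all genes called in these refits are not given here, so the counts are no result about the members in particular. Replicate 3 had the highest value for 18 of 18 enzymes in both control groups, and its mean over the enzymes was 10.94 in low CHIR, on the log2 scale, above the 10.78 and 10.74 of high-CHIR replicates 1 and 2. The spread between replicate numbers was thus as large as the difference between the doses.

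**Figure D3:**
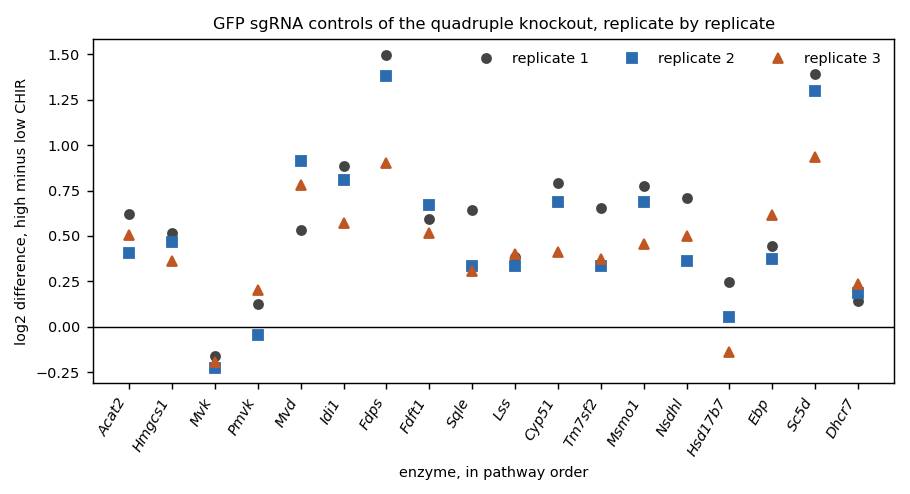
Difference between high and low CHIR (log2 of normalised count + 1, y axis) for each of the 18 synthesis enzymes (x axis) in the GFP sgRNA controls of the QKO. Each replicate number has 1 point (circle, square and triangle for 1, 2 and 3). For 15 enzymes the 3 points lie above 0, and for Mvk the 3 lie below it.

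Enzyme transcripts did not pass the limma test without a block in the 6 comparisons of knockout and control cells. The nearest to an exception was Dhcr7, which carries out the last step of one branch, in Ctnnb1 sgRNA cells in high CHIR. It was at 3435 and 5026 normalised counts against 2012 and 2234 with GFP sgRNA (log2 difference 0.97, limma adjusted p = 0.103). It was called by DESeq2 (0.99, adjusted p = 0.0375) and with the replicate block (0.97, limma adjusted p = 0.0274). With the block 12.7% of all genes were called there. In high CHIR, 3 members passed with Cre (Abcg1, Insig2 and Ch25h), where 8.65% of all genes did, 3 with Ctnnb1 sgRNA (Abcg1, Srebf1 and Ch25h), where 5.09% did, and 2 in the QKO (Abcg1 and Ch25h), where 2.54% did. All were higher. The median over the 18 enzymes was 0.12 with Cre, 0.29 with Ctnnb1 sgRNA and 0.04 in the QKO, with 15, 15 and 10 positive differences. The signs of these medians rested on single libraries. The median was -0.52 without Cre replicate 2 and -0.29 without no Cre replicate 1, and -0.07 without Ctnnb1 sgRNA replicate 2, all in high CHIR. For the QKO it was -0.09 or -0.10 without control replicate 1 or 2 and -0.07 without QKO replicate 3. In low CHIR the medians were -0.10, 0.00 and 0.19, and in the QKO 0 members passed, where 0.0063% of all genes did. At an unadjusted p under 0.05 also 0 members passed there, and the share of all genes at that threshold is not given here. For the change of the CHIR response, Ch25h was the only member called by the fits without a block, where 0.995% of all genes were called for Cre, 0.518% for Cas9 and 0.126% for the QKO. In the QKO the enzymes' changes had a median of -0.20, with 15 of 18 negative and 0 called, and a median of 0.03 without control high-CHIR replicate 3.

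Within the control arms of the β-catenin table, high against low CHIR gave no enzyme call either. The no Cre cells had 3 members lower (Abcg1, Insig2 and Ch25h), where 8.05% of all genes were called, and the GFP sgRNA cells 2 (Abcg1 and Ch25h), where 7.51% were. In the Cre and the Ctnnb1 sgRNA cells high against low CHIR called 0 members, where 0.292% and 0.763% of all genes were called. The enzyme medians were 0.06 and -0.10 in no Cre and GFP sgRNA cells, and leaving out no Cre replicate 2 (-0.34) or GFP sgRNA replicate 1 (0.06) in high CHIR, or no Cre replicate 1 in low CHIR (-0.12), turned their signs. The rise of the enzymes in the QKO controls, which were kept in low CHIR a day longer, was thus not seen as calls in these arms of 2 libraries each. The arms were not tested against each other. In high CHIR of this table, replicate 2 held the higher value for 18 of 18 enzymes in each of the 4 groups, and with Cre its mean over the enzymes was 11.71 against 10.48 for replicate 1.

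**Figure D4:**
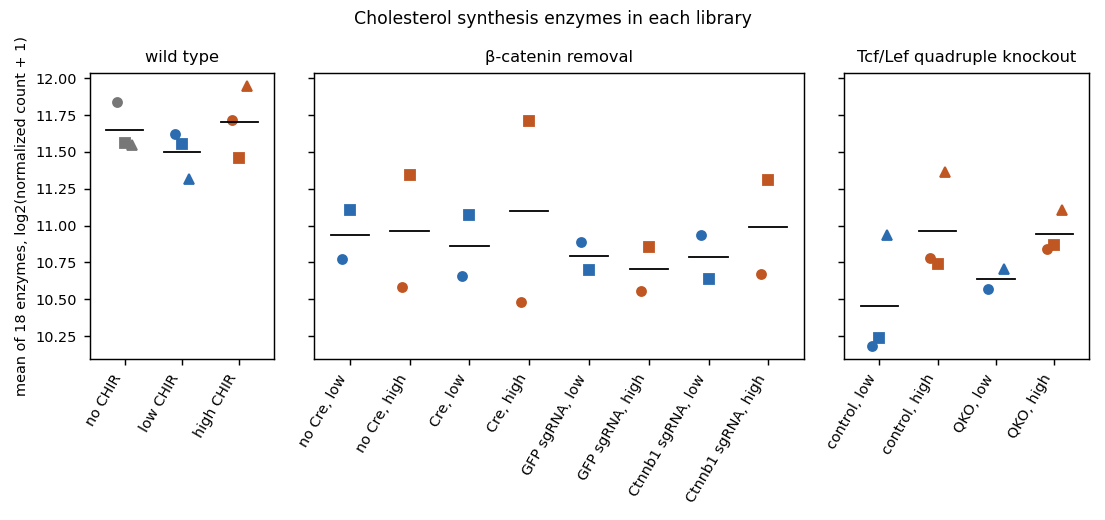
Mean over the 18 synthesis enzymes of log2(normalised count + 1) for each of the 36 libraries (y axis), by group (x axis), with 1 panel for each table. Circles, squares and triangles are replicates 1, 2 and 3, black bars are group means, and gray, blue and orange mark no, low and high CHIR. Replicates spread widely within groups, from 10.48 to 11.71 for Cre in high CHIR.

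**Figure D5:**
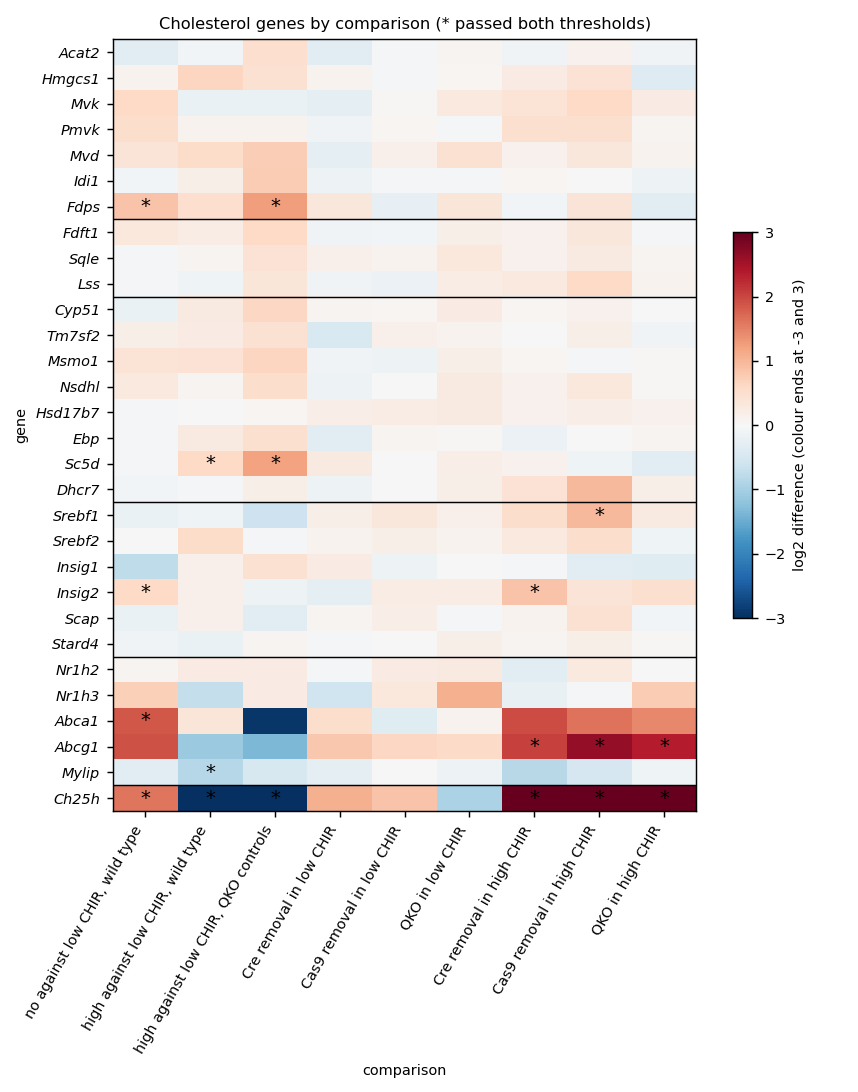
Log2 difference (colour, ends at -3 and 3) of the 30 members (y axis, by role) in 9 comparisons (x axis) from the limma fits without a block. Asterisks mark members with an adjusted p under 0.05 and an absolute difference of at least 0.5. The Ch25h line holds 6 asterisks, and the enzyme lines hold 4 asterisks, for Sc5d in high against low CHIR of wild-type cells and QKO controls, and for Fdps in the QKO controls and in no against low CHIR.

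The neighbouring pathways were counted as whole lists, here and in the next paragraph. Of all genes tested, 10.4% were called between high and low CHIR in wild-type cells and 14.9% in the QKO controls. The share was 4.97% between no and low CHIR. In high CHIR it was 8.65% with Cre, 5.09% with Ctnnb1 sgRNA and 2.54% in the QKO. The lists were not tested against these shares. Of 14 genes of fatty acid synthesis and SREBP1 targets, 1 was higher and 1 lower between high and low CHIR in wild-type cells, and 1 was higher and 2 lower in the QKO controls. Mid1ip1, an activator of acetyl-CoA carboxylase, was higher in both (log2 1.78 and 1.37, limma), Elovl6, a fatty acid elongase, lower in both (-0.86 and -0.98), and Acss2, which makes acetyl-CoA from acetate, lower in the QKO controls (-1.15). In high CHIR the list had 1 gene higher with Cre (Acss2, 1.01), 0 called with Ctnnb1 sgRNA and 1 higher in the QKO (Elovl6, 0.90), and in the other main comparisons 0 were called. Of 9 genes of SREBP processing, 1 was called, lower between no and low CHIR (Nfya, a subunit of the CCAAT-binding factor NF-Y, -1.02), and it is named here after its value was seen.

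Of 10 sterol transport genes, 2 were lower in wild-type high CHIR (Stard3, -0.92, and Osbpl1a, -0.68) and 3 in the QKO controls (Lipa, -1.36, Stard3, -1.10, and Osbpl1a, -0.85). Stard3 tethers endosomes to the endoplasmic reticulum, and Lipa is the lysosomal lipase that frees cholesterol from its esters. Lipa was higher in high CHIR with Cre (1.56) and with Ctnnb1 sgRNA (0.82). Of 11 genes of oxysterol and bile acid handling, 9 passed the filter in wild-type cells and 8 in the other tables. Soat1, which esterifies cholesterol, was higher (0.84) and Cyp46a1, another sterol hydroxylase, lower (-1.54) in wild-type high CHIR, and Cyp46a1 was lower in the QKO controls (-1.68). Of 11 genes of the isoprenoid side branches, 0 were called in any main comparison.

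Reads of some members can also fall on an overlapping gene, and only unambiguous reads were counted. Exons of Ch25h, Hmgcs1, Idi1, Fdps, Fdft1, Lss, Cyp51, Tm7sf2, Srebf1, Scap and Nr1h3 overlap exons of another annotated gene. For Fdps, Tm7sf2, Srebf1 and Nr1h3 an overlapping gene is on the same strand. Their counts are uncertain to that extent.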

How the data were processed

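The authors sequenced RNA with a low-input kit that does not mark strand, aligned paired reads with STAR to the combined mouse (GRCm38) and human assemblies, counted uniquely aligned, unambiguous reads per gene with featureCounts, and divided counts by DESeq2 size factors. The deposited values are these normalised counts (signal), in 3 tables normalised separately, so tests were run within a table. Columns of the authors' own comparisons (log2 fold changes and p-values) were not used. Values were whole multiples of 1 read, and reads were recovered for the count tests. Depth, the reads on genes per library, was 13651129 to 76071568 (wild type), 14537850 to 27838106 (β-catenin) and 13089780 to 20152719 (Tcf/Lef).

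Log2(normalised count + 1) was fitted with limma 3.58.1 (trend, R 4.3.3) over all libraries of a table, for genes with a mean of at least 10 (17411, 16780 and 15878 genes), with Benjamini-Hochberg adjustment over all of them. A gene was called at an adjusted p under 0.05 and an absolute log2 difference of at least 0.5. Fits without replication within a group when a library is left out share the spread of the other groups. Alternatives were edgeR 4.0.16 and DESeq2 1.42.0 on recovered reads, a pseudocount of 5, no filter, trimmed-mean (TMM) rescaling, only the libraries compared, a replicate block, and each library left out. Counting intervals are exact 95% binomial intervals for summed reads and cover counting error only. The scripts were tested on simulated data. For Cre in high CHIR the fit called 18.2% of genes simulated with a log2 difference of 1 and 94.9% of those with 2. A gene that was not called there may thus still differ. In the Tcf/Lef table each of the 15 pairs of same-numbered libraries correlated in their deviations from group means (0.214 to 0.637), so its blocked values are given beside the results they change by a call or by over 1.5 times. All 30 members, the targeted genes and, of each other pathway list, at most the 3 genes with the largest difference among those called in high against low CHIR of wild-type cells or QKO controls were named. Members and lists were chosen with earlier results of these data known. Gene symbols were matched to Ensembl identifiers, and positions and overlaps come from the GENCODE annotation of GRCm38. Human-assembly reads were not analysed here.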

Additional observations from a re-analysis of the deposited data

Results flagged for a closer look

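The effect of high CHIR on Ch25h differed between knockout and control cells in each of the 3 experiments, by the limma interaction term. The log2 change with CHIR was less negative by 8.01 (SE 0.67, adjusted p = 0.000128) with Cre than without, by 4.99 (SE 0.67, adjusted p = 0.00358) with Ctnnb1 sgRNA than with GFP sgRNA, and by 4.19 (SE 0.66, adjusted p = 0.0424) in the QKO than in its controls. All high-CHIR knockout libraries lay above all of their high-CHIR controls. The QKO call was fragile in the fit without the block. It was lost with a pseudocount of 5 and on leaving out most of the single libraries, and its high-CHIR controls held 4 reads in all. The interferon list was also higher in the Cre libraries (1533 to 2872 normalised counts against 213 to 355), and its part in the first value was not tested.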

How the results depend on the processing

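No named member that was called changed direction under any alternative run, whereas the median over the 18 enzymes changed sign with a library left out in several comparisons, as given beside those medians, and also between no and low CHIR (-0.03 and -0.06, without low-CHIR replicate 3 or no-CHIR replicate 1), in low CHIR with Cre (0.11 and 0.05, without Cre replicate 1 or no Cre replicate 2) and in low CHIR with Ctnnb1 sgRNA (-0.12 and -0.08, without Ctnnb1 sgRNA replicate 1 or GFP sgRNA replicate 2). The enzyme median of the QKO in high CHIR was -0.01 with DESeq2 and -0.00 with edgeR, and that of Ctnnb1 sgRNA in low CHIR -0.01 with TMM. In Ctnnb1 sgRNA cells in high CHIR, DESeq2, the block and only the libraries compared each called 1 enzyme. With the block 12.7% of all genes were called there. The count of called members differed by over 1.5 times in these cases of the main comparisons. Between no and low CHIR (4 called) it was 2 without the filter and 7 with only the libraries compared. With Cre in low CHIR (0) DESeq2 called 1. With Cre in high CHIR (3) the replicate block called 5, where 15.7% of all genes were called with the block. For the interaction with CHIR (1 each), Cre gave 2 with DESeq2, TMM or the block, and Cas9 gave 2 with DESeq2 or the block. The QKO gave 0 with a pseudocount of 5. It gave 2 with the block, with edgeR and the block, or with the block and without control high-CHIR replicate 1. With the block 3.13%, 1.4% and 0.857% of all genes were called for Cre, Cas9 and the QKO. In the QKO in high CHIR (2) edgeR called 1. With the block the dose comparisons within QKO and GFP sgRNA cells (1 and 2) called 3 and 4, where 6% and 15.3% of all genes were called. In the QKO controls (3) DESeq2 called 6, the block 13, edgeR with the block 13, and the block without control high-CHIR replicate 1 called 12. With the block 20.9% of all genes were called there. Shares of all genes called under the other alternatives are not given here, so those counts are no result about the members in particular. The fits of edgeR with the block and of the block without control high-CHIR replicate 1 were chosen after seeing the data. The block rests on the pairing seen in the Tcf/Lef table, with correlations of 0.214 to 0.637. In wild-type cells pair correlations were -0.016 to 0.272. In the β-catenin table they were 0.334 to 0.518 among Cre and no Cre groups and 0.116 to 0.491 among Cas9 groups. That table has 2 numbers a group, so there and in wild-type cells the numbers are a hint at most. The cause of these differences was not tested.

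With each library left out in turn, counts ranged from 2 to 4 (high against low CHIR, wild type), 0 to 3 (no against low), 0 to 0 (Cre, Cas9 and the QKO in low CHIR), 2 to 3 (Cre in high CHIR), 2 to 2 (Cas9 in high CHIR), 1 to 2 (QKO in high CHIR), 3 to 16 (QKO controls), 1 to 2 (Cre interaction), 1 to 1 (Cas9 interaction) and 0 to 1 (QKO interaction). Shares of all genes called with a library left out are not given here, so these ranges describe the fits and not the members in particular. Groups of 2 or 3 libraries and the few reads of Ch25h, Abca1 and Nr1h3 limit the precision.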

Other observations

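The genes next to Ch25h were looked at after its values were seen. Gm26902, whose exon overlaps that of Ch25h on the other strand, had mean normalised counts of 213 without CHIR, 93.3 in low and 4.57 in high CHIR of the wild-type series. In high CHIR it was at 1.38 without Cre and 145 with Cre, at 0 with GFP sgRNA and 75.3 with Ctnnb1 sgRNA, and at 1.24 in the controls and 3.89 in the QKO. Lipa, a neighbour on the same strand, fell with CHIR in the no Cre, GFP sgRNA and QKO control cells (log2 -1.09, -0.91 and -1.36, limma, all called), but not called in wild-type cells (-0.45). In the QKO it was also lower in high CHIR (-1.36), and in high CHIR the QKO did not differ from its controls in the test (-0.00). Ifit2, an interferon-induced gene within 100 kb, was lower in high CHIR of the no Cre and QKO control cells (-1.16 and -1.31) and higher with Cre in high CHIR (1.48). Between high and low CHIR it was not called in wild-type (-1.45) or GFP sgRNA cells (0.38). In high CHIR it was not called with Ctnnb1 sgRNA (-0.10) or in the QKO (0.73). Between no and low CHIR its difference was -1.22, not called and opposite in sign to that of Ch25h.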
